A study of Mus musculus with 14 samples.

Results

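The 38 genes described here act in G2 and mitosis, from the cyclins that drive entry into mitosis to the proteins that separate the daughter cells. They were taken by symbol from a given list, by a rule that uses no measured value. The list itself was chosen with earlier results of these data known, so it is not independent of them. All 38 were found among 17890 genes of the expression table and passed the filter on low counts. The study has 14 mouse samples in 2 phases, and the 8 libraries of the first phase were analysed, 4 with column names starting with D and 4 with names starting with M. All 8 are bulk RNA-seq libraries of marrow progenitors from male C57BL/6J mice that were 8 weeks old at allocation, cultured for 7 days in DMEM with 5 mmol/L glucose and recombinant M-CSF, the growth factor that drives macrophage formation. The D libraries belong to the diabetic group, whose mice received streptozotocin, which destroys the beta cells of the pancreas, at 42 to 45 mg/kg/day for 5 days after a 12 h fast. Those mice had nonfasted glucose above 16.9 mmol/L and then 6 weeks of hyperglycaemia. The M libraries were matched to the healthy group by elimination, since no label explains the letter, and if M stood for another group, the directions given below would not hold for diabetic against healthy. From the second phase, 3 samples named diabetic-trained and 3 named untrained were not analysed here. Separate mice behind the libraries are not named in any label. The p-values set the difference between the groups against the variation between libraries of a group, and that variation may be technical.

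Cells in G2 build up cyclin A and cyclin B with the kinase CDK1, and the CDC25 phosphatases switch this complex on to start mitosis. The spindle checkpoint then holds sister chromatids together until every kinetochore is attached, after which the anaphase-promoting complex marks securin and the cyclins for destruction and cytokinesis divides the cell. The messages of these genes peak together late in the cell cycle and are low in resting cells such as mature macrophages, so they are widely used as a readout of dividing cells in a mixed population. Many of their promoters carry a short element named the cell cycle genes homology region, TTTGAA or TTCGAA, bound by complexes built on the MuvB core, and nearby CCAAT boxes bound by NF-Y.

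Depth was even, with 19048248 to 20028111 estimated counts per library. Counting error weighs more on members with lower levels, and for single members it was not separated from the spread between libraries. The groups separated on the first principal component (64.7% of the variance), and within D, replicate 3 lay farthest out (-54.45) and replicate 1 nearest to M (-16.03), against 27.9 to 37.57 in M. The macrophage label was checked against 14 macrophage markers. None was at 0 in every library. Their summed TPM (scaled by transcript length and to one total per library) was 13202 to 19885 in D and 9287 to 10890 in M. Mertk, an efferocytosis receptor of mature macrophages, was low at 0.61 to 1.50 CPM (counts scaled to library size). It is 1 of the 14 markers, named outside the naming rule, and cannot stand for the list. The others are given here only as a sum. The 11 late neutrophil markers summed to 132402 to 192998 TPM in D and 128637 to 129251 in M. The 11 neutrophil markers thus summed to more TPM than the 14 macrophage markers in every library. These sums depend on which genes were listed and do not measure the share of either cell type.

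Promoters of members with low p are shown first, as examples of an element that many of the genes hold. RefSeq windows on GRCm38.p6, running from 250 bases before to 50 bases after the start site, were matched for 32 of the 38 genes (34 windows). The windows are given 5′ to 3′ in the direction of transcription, with capitals marking the homology region and the CCAAT box. The homology region was searched on both strands as TTTGAA, which a window shows as TTCAAA where it lies on the opposite strand. Its variant TTCGAA reads alike from either side. The CCAAT box on the opposite strand appears as ATTGG. The first 6 sequences belong to the members with the lowest p among those whose window holds the homology region, and Ect2 has a second window not shown. Being chosen for the region, they cannot show how common it is. Ccnb1 was passed over because its window lacks the region, and Ccna2 because no window was matched for it. Cdc25b, the one lower member, was added after its values were seen.
Ect2, chr3:27153805-27154104, minus strand: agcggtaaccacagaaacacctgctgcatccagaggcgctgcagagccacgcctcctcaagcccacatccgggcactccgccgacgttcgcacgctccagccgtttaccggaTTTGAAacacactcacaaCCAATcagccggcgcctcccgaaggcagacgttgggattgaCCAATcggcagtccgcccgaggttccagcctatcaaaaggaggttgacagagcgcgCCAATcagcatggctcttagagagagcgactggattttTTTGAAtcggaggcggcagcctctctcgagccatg
Ube2c, chr2:164769679-164769978, plus strand: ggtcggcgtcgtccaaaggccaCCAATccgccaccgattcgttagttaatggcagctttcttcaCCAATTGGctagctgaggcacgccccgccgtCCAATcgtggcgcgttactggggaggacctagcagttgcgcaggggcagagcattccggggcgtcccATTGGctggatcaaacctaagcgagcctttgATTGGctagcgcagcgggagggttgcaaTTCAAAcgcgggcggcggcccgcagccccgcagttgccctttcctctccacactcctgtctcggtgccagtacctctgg
Anln, chr9:22389157-22389456, minus strand: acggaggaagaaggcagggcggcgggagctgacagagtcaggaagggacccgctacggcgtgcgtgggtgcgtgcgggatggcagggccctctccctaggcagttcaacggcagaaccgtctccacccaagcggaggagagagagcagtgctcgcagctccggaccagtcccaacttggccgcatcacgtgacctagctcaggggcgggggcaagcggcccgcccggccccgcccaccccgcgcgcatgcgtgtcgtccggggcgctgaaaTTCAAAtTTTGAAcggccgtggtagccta
Cenpa, chr5:30666636-30666935, plus strand: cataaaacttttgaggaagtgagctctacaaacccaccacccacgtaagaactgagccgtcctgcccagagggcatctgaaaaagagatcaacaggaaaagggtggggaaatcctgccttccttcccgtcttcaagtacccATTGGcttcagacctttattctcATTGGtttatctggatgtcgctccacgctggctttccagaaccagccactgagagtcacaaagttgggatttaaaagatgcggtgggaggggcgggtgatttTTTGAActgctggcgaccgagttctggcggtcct
Ccnb2, chr9:70421505-70421804, minus strand: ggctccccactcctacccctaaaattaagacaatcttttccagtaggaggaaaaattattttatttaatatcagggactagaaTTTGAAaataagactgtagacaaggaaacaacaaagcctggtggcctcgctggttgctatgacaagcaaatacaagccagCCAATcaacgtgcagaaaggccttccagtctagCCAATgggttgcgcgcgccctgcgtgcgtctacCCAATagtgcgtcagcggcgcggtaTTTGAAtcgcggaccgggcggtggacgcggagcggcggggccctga
Bub1, chr2:127831810-127832109, minus strand: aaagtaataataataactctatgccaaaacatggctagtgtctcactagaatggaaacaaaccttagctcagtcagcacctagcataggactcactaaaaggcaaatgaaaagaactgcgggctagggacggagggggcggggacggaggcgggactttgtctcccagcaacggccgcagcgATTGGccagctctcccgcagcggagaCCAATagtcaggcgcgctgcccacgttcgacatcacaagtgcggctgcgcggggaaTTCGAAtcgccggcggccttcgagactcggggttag
Cdc25b, chr2:131186698-131186997, plus strand: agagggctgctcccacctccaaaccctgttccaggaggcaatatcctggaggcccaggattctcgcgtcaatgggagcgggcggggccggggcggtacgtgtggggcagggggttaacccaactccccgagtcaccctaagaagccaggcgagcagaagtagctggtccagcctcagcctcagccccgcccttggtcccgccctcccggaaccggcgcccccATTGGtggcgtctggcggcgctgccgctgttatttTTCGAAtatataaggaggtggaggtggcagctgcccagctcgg
The element starts at 15 in Bub1, 16 in Ect2, 17 in Cenpa, 5 in Ccnb2, 8 in Cdc25b and -29 in Ube2c, counted in bases from the start site, and in Anln a pair of neighbouring matches starts at 22 and 29. Ect2 and Ccnb2 each hold another match further upstream, at -138 and -167. Anln has no CCAAT in its window, and the window of Cdc25b, the gene that moved the other way, holds both TTCGAA and CCAAT.

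Across the members, 24 of the 32 genes with a window (75%) held TTTGAA or TTCGAA on either strand, against 21.7% of 27025 genes with windows of the same length and 20% of 35 S-phase genes. Other mitosis genes held it in 59% of 78 genes, and genes that passed the filter here in 16.9%. CCAAT on either strand was present in 75% of the member genes, 69.2% of the other mitosis genes, 41.1% of all genes and 57.1% of the S-phase genes. Both elements stood in the windows of 65.6% of member genes, 46.2% of the other mitosis genes and 8.61% of all genes. Such a match is a description of letters in the window and not a measured binding site, and overlapping matches were counted.

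Of the 38 genes, 33 were higher and 1 was lower in D than in M, and 4 did not pass (edgeR's quasi-likelihood test, Benjamini-Hochberg adjusted p under 0.05 over 12839 genes). In the same comparison 34.7% of all tested genes were called, 17.4% as higher and 17.3% as lower. The median log2 fold change of the members was 0.36, which is 1.28-fold, against -0.03 over all tested genes. The differences were small: the 33 higher genes rose by 1.14- to 1.60-fold, none of the 38 reached a 2-fold change, and the median absolute log2 fold change of all called genes was 0.48. In 31 members the lowest D library was above the highest M library, as in 16.3% of all tested genes, and in Cdc25b the highest D library was below the lowest M library, as in 18.4% of all tested genes. In bulk cultures, more dividing cells and more RNA of these genes per cell cannot be told apart.

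The size of this group of calls depended on scaling. With library totals alone in place of TMM factors, 20 members were higher, where 11.9% of all tested genes were, and 1 was lower, with a median of 0.25, and the median over all genes moved to -0.14. The 13 that lost their call were Cdk1, Foxm1, Birc5, Tpx2, Bub1b, Mad2l1, Cdc20, Cenpe, Nuf2, Kif4, Nusap1, Hmmr and Racgap1. On the authors' FPKM values, tested on a log scale, 20 members were higher with a filter on low values (12.3% of all genes) and 18 without it (7.49%). The share of all calls that were higher was 50.1% with TMM and 31.3% with library totals. The direction was positive for all 33 higher genes under both scalings, while Cks2, which did not pass, turned to -0.0080.

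**Figure D1:**
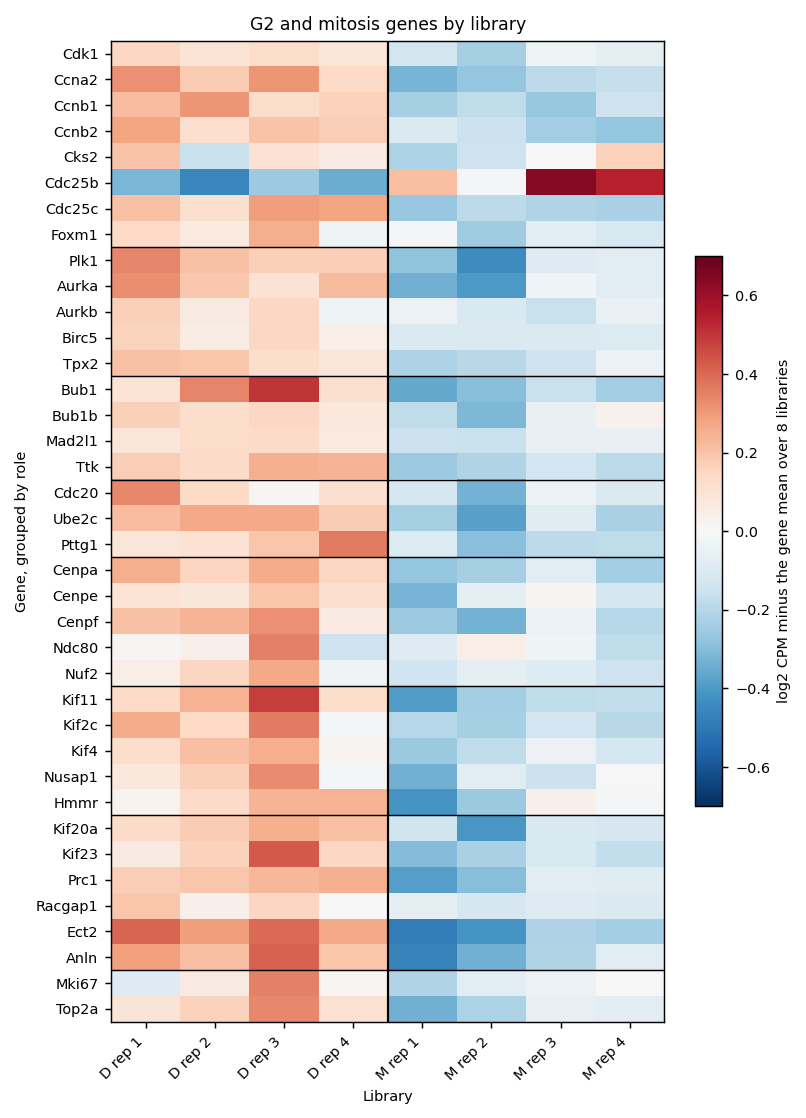
The heat map shows log2 CPM of each of the 38 genes minus its mean over 8 libraries, with genes grouped by role and libraries in columns, 4 D then 4 M. Most genes are above their mean (red) in D and below it (blue) in M, Cdc25b shows the opposite, and D replicate 3 holds the highest value of the 8 libraries for 19 genes.

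The cyclin and CDK1 engine of mitotic entry had 6 of 8 members higher and 1 lower, with a median log2 fold change of 0.31. Ccna2, cyclin A2, which acts in S phase and G2, was at 176, 160, 175 and 154 CPM in D replicates 1 to 4 and at 112, 117, 124 and 126 CPM in the M replicates. All D libraries were above all M libraries. The means were 166 ± 10.7 and 120 ± 6.3 CPM (SD, n = 4 each), a log2 fold change of 0.47 ± 0.07 (SE) with an adjusted p of 0.000806 (edgeR, Benjamini-Hochberg, as for every adjusted p below).

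Cdc25b, a phosphatase that activates CDK1 early in mitotic entry, was the only member that fell. The gene lies on chr2:131186436-131198511 of GRCm38. It was at 43.2, 39.2, 45.1 and 42.3 CPM in D and at 62.2, 53.4, 83.8 and 78.4 CPM in M. The D libraries lay close together, while M ranged widely, with replicates 3 and 4 highest and replicate 2 nearest to D. The means were 42.4 ± 2.46 in D and 69.5 ± 14.1 CPM in M (SD, n = 4), and the log2 fold change was -0.71 ± 0.13 (SE, adjusted p = 0.00252, edgeR). Its relative Cdc25c, which acts at the same step, moved the other way, with 10.4 ± 0.576 against 7.6 ± 0.175 CPM and a log2 fold change of 0.44 (adjusted p = 0.00493, edgeR).

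The B-type cyclins, the partners of CDK1 in mitosis, were also higher in D, by 1.33-fold for Ccnb1 (90.4 ± 4.95 against 67.9 ± 2.54 CPM) and 1.31-fold for Ccnb2 (50.3 ± 2.32 against 38.5 ± 2.1 CPM). Cdk1 itself, the catalytic subunit, rose less, at 81.5 ± 1.51 against 69.6 ± 4.31 CPM (1.17-fold, adjusted p = 0.0191, edgeR), and its call ended without M replicate 2 (adjusted p = 0.0558). With library totals its log2 fold change went from 0.23 to 0.12 (adjusted p = 0.18), on FPKM values its adjusted p reached 0.216, and on the most abundant transcript it was 0.0547. Foxm1, a transcription factor of G2 and mitosis genes, rose by 1.17-fold with groups that overlapped (adjusted p = 0.0477, edgeR). That call ended without any one of D replicates 2 and 3 and M replicates 2, 3 and 4, with adjusted p up to 0.128, and with voom (0.0511), no filter (0.0579), library totals (log2 fold change 0.12, 0.238) and FPKM values (up to 0.298). Cks2, a small CDK-binding subunit, had 62.1 ± 6.3 in D and 58.1 ± 6.88 CPM in M, with overlapping groups and an adjusted p of 0.468 (edgeR).

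Among the mitotic kinases and their partners, 4 of 5 were higher, with a median log2 fold change of 0.30. Plk1, the polo-like kinase that acts from mitotic entry to cytokinesis, was at 69.3, 63.2, 61.5 and 61.7 CPM in D and at 45.0, 40.4, 51.4 and 51.7 CPM in M. The groups did not overlap, and M replicates 1 and 2 were the lowest. The log2 fold change was 0.44 ± 0.09 (SE, adjusted p = 0.00394, edgeR).

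Tpx2, which targets Aurora A to spindle microtubules, was at 109, 108, 103 and 100 CPM in D and 81.4, 82.6, 85.4 and 91.8 CPM in M. The groups were separate, and the log2 fold change was 0.30 ± 0.06 (SE, adjusted p = 0.00519, edgeR). With library totals it was 0.20 and the call ended (adjusted p = 0.0543), as on FPKM values (up to 0.0683). Aurka, Aurora A itself, rose by 1.33-fold. Birc5, survivin of the chromosomal passenger complex, rose by 1.15-fold (adjusted p = 0.0209, edgeR), a call lost when M replicate 3 (0.0536) or M replicate 4 (0.055) was left out, and with library totals (log2 fold change 0.10, adjusted p = 0.237). Aurkb, the kinase of that complex, had 59.8 ± 3.64 in D and 52.9 ± 1.98 CPM in M and did not pass (adjusted p = 0.0594, edgeR), although every D library was above every M library. Without D replicate 4 its adjusted p was 0.0361, and with DESeq2 size factors 0.0374 (both edgeR). By the DESeq2 test it was 0.0245. In the remaining settings Aurkb did not pass, with an adjusted p up to 0.471.

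All 4 spindle checkpoint genes were higher in D, with a median log2 fold change of 0.32. Bub1, a checkpoint kinase of the kinetochore, was at 63.3, 75.3, 83.7 and 64.1 CPM in D and at 46.3, 48.3, 53.2 and 50.1 CPM in M. D spread more than M, with replicate 3 highest, and the groups did not overlap. The log2 fold change was 0.53 ± 0.10 (SE, adjusted p = 0.00232, edgeR).

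Ttk, the kinase also known as Mps1 that starts checkpoint signalling, was at 25.2, 24.5, 26.5 and 26.3 CPM in D and at 18.7, 19.3, 20.4 and 19.6 CPM in M. Both groups were tight and separate, with a log2 fold change of 0.39 ± 0.07 (SE, adjusted p = 0.00234, edgeR). Bub1b and Mad2l1, parts of the complex that inhibits Cdc20, rose by 1.19- and 1.15-fold (adjusted p = 0.0293 and 0.0197, edgeR). The Bub1b call was lost on leaving out D replicate 2 or either of M replicates 1 and 2 (adjusted p up to 0.077), and the Mad2l1 call without D replicate 2 or M replicate 2 (up to 0.0579). With library totals Bub1b was at 0.15 (adjusted p = 0.187) and Mad2l1 at 0.10 (0.214), and on the most abundant transcript Mad2l1 was at 0.04 (0.859).

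The 3 genes of anaphase onset were higher as well, with a median of 0.38. Ube2c, the ubiquitin-conjugating enzyme of the anaphase-promoting complex, was at 86.9, 89.9, 89.8 and 84.7 CPM in D and at 63.8, 57.5, 70.4 and 64.0 CPM in M. The lowest D library was above the highest M library by more than the whole range of D. The means were 87.8 ± 2.49 and 63.9 ± 5.29 CPM (SD, n = 4), and the log2 fold change was 0.46 ± 0.07 (SE, adjusted p = 0.000996, edgeR).

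Pttg1, securin, the inhibitor of separase, was at 22.5, 22.9, 24.4 and 27.4 CPM in D and 19.9, 17.4, 18.8 and 18.8 CPM in M. The groups were separate, with D replicate 4 highest, and the log2 fold change was 0.38 ± 0.09 (SE, adjusted p = 0.00799, edgeR). Cdc20, the activator of the complex at anaphase, rose by 1.23-fold (59.0 ± 5.68 against 48.0 ± 4.08 CPM, adjusted p = 0.0231, edgeR), and its call ended without D replicate 2 (0.05) or M replicate 2 (0.0662), and with library totals (log2 fold change 0.20, 0.148).

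At the centromere and kinetochore, 4 of 5 genes were higher, with a median log2 fold change of 0.24. Cenpa, the histone H3 variant that marks centromeres, was at 66.1, 61.3, 66.1 and 61.2 CPM in D and at 45.8, 47.1, 52.6 and 47.0 CPM in M. Cenpf, a large outer kinetochore protein, was at 52.1, 53.2, 56.3 and 47.2 CPM in D and at 37.9, 35.9, 44.0 and 39.3 CPM in M. Neither gene's groups overlapped. The log2 fold changes were 0.40 ± 0.07 for Cenpa (SE, adjusted p = 0.00158) and 0.41 ± 0.08 for Cenpf (SE, adjusted p = 0.00394, edgeR).

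The kinetochore motor Cenpe and Nuf2, a subunit of the NDC80 complex that grips microtubules, rose by 1.18- and 1.17-fold (adjusted p = 0.0364 and 0.0376, edgeR). The call of Cenpe ended without any one of D replicates 2 and 4 and M replicates 1, 2 and 4 (adjusted p up to 0.0807), and that of Nuf2 without any one of D replicates 2 and 3 and all 4 M replicates (up to 0.0958). With library totals they were at 0.13 and 0.12 on the log2 scale (adjusted p = 0.203 and 0.204). Ndc80, which names that complex, did not pass, with 30.7 ± 4.65 against 28.0 ± 1.86 CPM and overlapping groups (adjusted p = 0.346, edgeR).

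All 5 spindle motors and microtubule binders were higher, with a median of 0.31. Kif11, the kinesin-5 motor that pushes spindle poles apart, was at 144, 155, 183 and 143 CPM in D and at 100, 111, 116 and 117 CPM in M. Kif2c, a microtubule-depolymerizing kinesin, was at 46.1, 42.4, 49.6 and 38.3 CPM in D and 33.5, 32.7, 35.1 and 33.7 CPM in M. In both genes D replicate 3 was the highest library and the groups did not overlap. The log2 fold changes were 0.50 ± 0.09 for Kif11 (SE, adjusted p = 0.0025) and 0.39 ± 0.08 for Kif2c (SE, adjusted p = 0.00583, edgeR).

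Kif4, a chromosome-bound kinesin, rose by 1.23-fold (adjusted p = 0.0126, edgeR), and its call ended with library totals (0.0743), on FPKM values (up to 0.104) and on the most abundant transcript (0.27). Nusap1 and Hmmr, which bind spindle microtubules, rose by 1.21- and 1.24-fold with overlapping groups (adjusted p = 0.0383 and 0.0361, edgeR). The Nusap1 call ended without any one of D replicates 2 and 3 and M replicates 1, 2 and 3 (adjusted p up to 0.0981), and with library totals (0.148). The Hmmr call without any one of D replicates 2, 3 and 4 and M replicates 1 and 2 (up to 0.0993), and with library totals (0.131).

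The central spindle and cytokinesis genes had 6 of 6 members higher and the highest median of the roles, 0.41. Ect2, the exchange factor that activates RhoA at the division plane, was at 60.9, 56.4, 60.5 and 55.2 CPM in D and at 32.9, 34.4, 39.6 and 38.9 CPM in M. The lowest D library was well above the highest M library. The means were 58.2 ± 2.9 and 36.4 ± 3.31 CPM (SD, n = 4), and the log2 fold change of 0.68 ± 0.08 (SE, 1.60-fold, adjusted p = 0.000195, edgeR) was the highest of the 38. The gene lies on chr3:27097222-27154253 of GRCm38.

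Anln, anillin, a scaffold of the contractile ring, was at 60.6, 57.6, 66.1 and 56.9 CPM in D and at 35.9, 39.3, 42.9 and 47.0 CPM in M. The groups were separate, and the log2 fold change was 0.55 ± 0.09 (SE, adjusted p = 0.00148, edgeR). The central spindle kinesins Kif20a and Kif23 rose by 1.30- and 1.32-fold, and Prc1, which bundles antiparallel microtubules, by 1.34-fold. Racgap1, the partner of Kif23 in centralspindlin and of Ect2, rose by 1.14-fold (88.2 ± 5.65 against 77.3 ± 1.17 CPM, adjusted p = 0.0398, edgeR). Its call ended without D replicate 2 or any one of the 4 M replicates (adjusted p up to 0.0941), and with library totals (log2 fold change 0.08, 0.335).

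The remaining pair, of chromosome structure, split. Top2a, the topoisomerase that untangles sister chromatids, was at 402, 422, 476 and 405 CPM in D and at 298, 324, 362 and 357 CPM in M. Its groups were separate, with a log2 fold change of 0.35 ± 0.09 (SE, adjusted p = 0.0111, edgeR). Mki67, which codes for Ki-67, a coat protein of mitotic chromosomes and a common marker of proliferation, was at 399, 443, 542 and 427 CPM in D and 367, 404, 413 and 424 CPM in M. Its groups overlapped, with D replicate 3 far above the rest and D replicate 1 below M replicates 2 to 4, and it did not pass (log2 fold change 0.17 ± 0.10, SE, adjusted p = 0.194, edgeR).

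**Figure D2:**
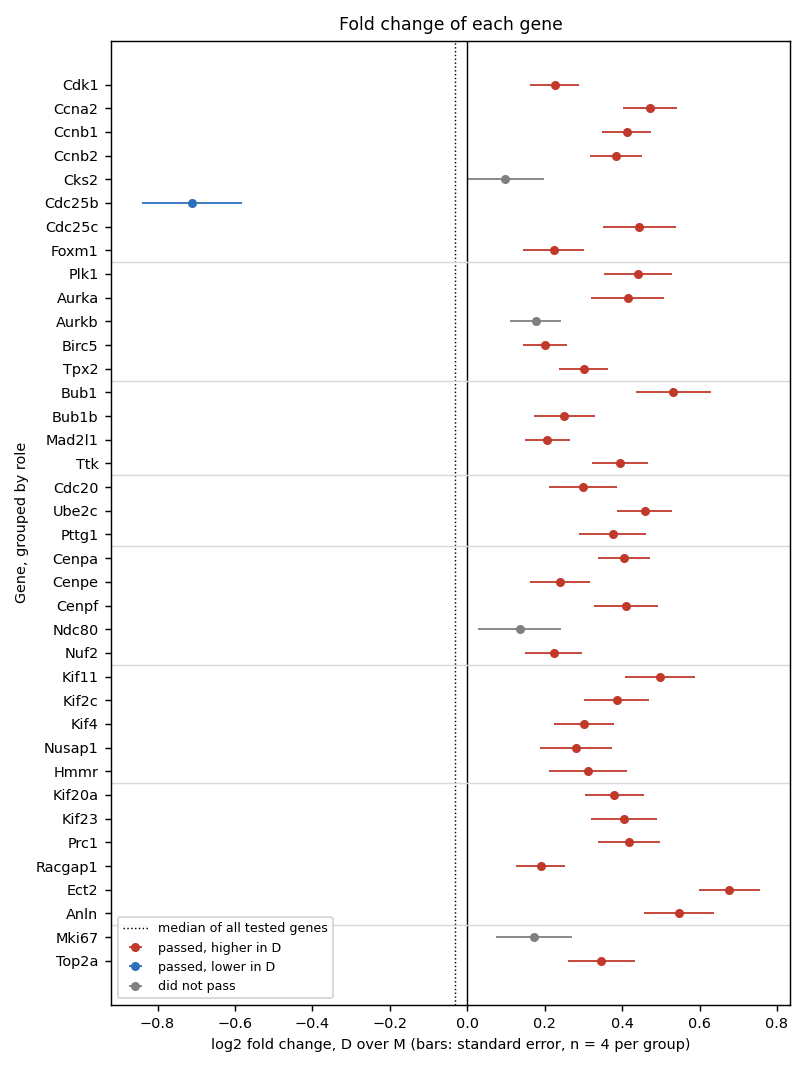
Points give the log2 fold change of D over M for each of the 38 genes and bars its standard error (n = 4 per group), with colour showing whether the gene passed and the dotted line the median of all tested genes. The values run from -0.71 for Cdc25b to 0.68 for Ect2, and the other 36 genes lie between these, all above 0.

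Read per transcript length, the levels spanned a wide range. Ube2c was among the highest with 178.3 ± 7.4 TPM in D and 138.2 ± 12.8 TPM in M, beside Cks2 (172.5 and 171.9 TPM) and Top2a (147.6 and 124.0 TPM). Cenpf was the lowest in M, at 7.0 ± 0.7 TPM against 8.8 ± 0.6 TPM in D. The median coefficient of variation of CPM was 6.41% in D and 6.48% in M, against 11.9% and 8.40% over all tested genes. These were not matched for level, and counting error weighs more on genes with low counts.

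Libraries differed within each group. D replicate 3 held the highest of the 8 values for 19 members and D replicate 1 for 13, and M replicate 1 held the lowest for 19 and M replicate 2 for 13. The median of the members, as log2 CPM minus each gene's mean, was 0.17, 0.15, 0.25 and 0.11 in D replicates 1 to 4 and -0.23, -0.23, -0.09 and -0.11 in M. Within M, replicates 3 and 4 were thus nearer to D than replicates 1 and 2. Without D replicates 1 and 3, the outermost libraries of their group on the first component, 27 members were higher and 1 was lower, where 18.2% of all tested genes were higher.

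Of the 34 called members, 14 kept their call under all 20 alternative settings: Ccna2, Ccnb1, Ccnb2, Cdc25b, Cdc25c, Plk1, Ube2c, Cenpa, Cenpf, Kif2c, Kif20a, Kif23, Prc1 and Ect2. Using the most abundant transcript of each gene in place of the sum left 15 members higher, where 8.6% of genes were. Calls were lost there for Bub1 (log2 fold change 0.37, adjusted p = 0.616), Ttk (0.34, 0.183), Pttg1 (0.35, 0.247), Kif11 (0.41, 0.481), Anln (0.31, 0.268) and Top2a (0.32, 0.0573), beside the 13 lost with library totals except Tpx2. Members had 109 transcripts, and 27 members had several. Of the calls lost on the most abundant transcript, 4 belong to members with 1 transcript. In Racgap1, the most abundant transcript was at 21.58, 21.86, 48.24 and 46.14 TPM in D and 35.41, 41.06, 41.77 and 47.95 TPM in M. A second transcript was at 31.33 and 19.42 TPM in D replicates 1 and 2 and listed at 0 in the other 6 libraries. Restricted to the first of these, Racgap1 had a log2 fold change of -0.17.

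Reads of some members could be shared with other loci. By the RefSeq annotation 7 members overlap another tested gene (Nusap1 with Oip5, Aurka with Cstf1, Ccna2 with Exosc9, Cdc20 with Elovl1, Prc1 with Rccd1, Anln with 9530077C05Rik and Kif20a with Brd8 and Cdc23). Named pseudogenes exist for Ccnb1, Ccnb2 and Kif4. Whether the counting used strand is not given in the sources used here, so those values are less certain.

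Other genes of the same processes were taken from lists drawn up by function, also with earlier results of these data known. Of 92 other mitosis genes, 45 (48.9%) were higher and 2 (2.17%) were lower in D (Zwint, -0.22, and Lin37, -0.30). Over all tested genes 17.4% were higher and 17.3% lower. The median log2 fold change of the list was 0.24. With library totals 25 of these genes were higher, where 11.9% of all tested genes were, and 4 were lower, with a median of 0.14. On the most abundant transcript 18 were higher, where 8.6% of genes were, and 3 were lower. Depdc1a and Depdc1b, a related pair with mitotic expression, rose by 0.82 and 0.79 on the log2 scale. Cep55, which recruits the abscission machinery to the midbody, rose by 0.54, and Lin54, the DNA-binding subunit of the MuvB core, by 0.53. Lin37, named above as lower, is another subunit of that core. Rbbp4 (-0.16) and Lin52 (-0.07), also of the core, did not pass. The calls of Cep55 and Depdc1b ended on the most abundant transcript. Mybl2, a partner of the MuvB core, and Lin9, a further core subunit, had log2 fold changes of 0.03 and -0.02. Mybl2 and Lin9 did not pass (adjusted p = 0.771 and 0.881, edgeR), and their signs changed with the scaling. Wee1, the kinase that opposes Cdc25 phosphatases, was at 29.2 ± 4.02 and 26.9 ± 1.3 CPM (adjusted p = 0.389, edgeR).

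Of 17 genes of the anaphase-promoting complex and its regulators, 2 (11.8%) were higher and 1 (5.88%) was lower, with a median of -0.02. Over all tested genes 17.4% were higher and 17.3% lower, and shares of a list of 17 rest on few genes. With the replicate number as a block 2 were higher and 2 were lower. Fbxo5, the inhibitor EMI1, rose by 0.27 and the subunit Anapc4 by 0.20 on the log2 scale, while the subunit Anapc13 fell by 0.44 (adjusted p = 0.0174, edgeR). With library totals none of the 17 was higher and 3 were lower, and the Anapc13 call ended without M replicate 1 (adjusted p = 0.0524). Fzr1, the activator of the complex in late mitosis and G1, was at 59.7 ± 4.76 and 57.8 ± 2.69 CPM (adjusted p = 0.64, edgeR), and its sign also turned with library totals.

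Of 44 S-phase genes, 5 (11.4%) were higher (Mcm4, Rrm2, E2f2, Ccne2 and Chek1) and 3 (6.82%) were lower (Pola2, Pold1 and Rfc3). Both shares were below those over all tested genes, 17.4% higher and 17.3% lower. The median log2 fold change of the list was 0.03. With the replicate number as a block 3 were higher and 3 were lower. With library totals 3 were higher and 4 were lower, and the median turned to -0.07 (-0.09 on FPKM values). The call of Ccne2, cyclin E2, ended on the most abundant transcript (adjusted p = 0.612). Rrm2, a subunit of ribonucleotide reductase, rose by 0.32 and the activator E2f2 by 0.43 on the log2 scale, and Pold1, the catalytic subunit of DNA polymerase delta, fell by 0.47. Pcna, the sliding clamp of replication, was at 250 ± 27.7 in D and 234 ± 21.5 CPM in M (adjusted p = 0.471, edgeR). The helicase subunit Mcm2 was at 116 ± 15.4 and 122 ± 5.17 CPM (adjusted p = 0.542, edgeR), with the 2 groups overlapping for both genes. The sign for Pcna turned with library totals and that for Mcm2 without D replicate 3.

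Of 23 tested genes of G1 and cell cycle exit, 6 (26.1%) were higher and 0 were lower by edgeR's quasi-likelihood test. Over all tested genes 17.4% were higher and 17.3% lower. In this list 2 were lower at an unadjusted p under 0.05 by that test. With DESeq2 0 were lower, and with the replicate number as a block 2 were. Cdkn2c and Cdkn2d, inhibitors of CDK4 and CDK6, rose by 0.80 and 0.35 on the log2 scale, and Cdkn1b, the inhibitor p27, by 0.53 (182 ± 27.3 against 127 ± 17.0 CPM). The pocket protein gene Rbl1 rose by 0.44, a call that ended on the most abundant transcript. Of the D-type cyclins, Ccnd3 rose by 0.50 with separate groups (307 ± 5.22 against 218 ± 17.4 CPM), and Ccnd1 by 0.65 with overlapping groups (adjusted p = 0.0219, edgeR). With the replicate number as a block the adjusted p of Ccnd1 was 0.0740. Ccnd2 and Cdkn1a, the inhibitor p21, had log2 fold changes of 0.08 and 0.03 and did not pass, and both signs turned with library totals. With library totals 5 genes of this list were higher and 4 were lower.

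**Figure D3:**
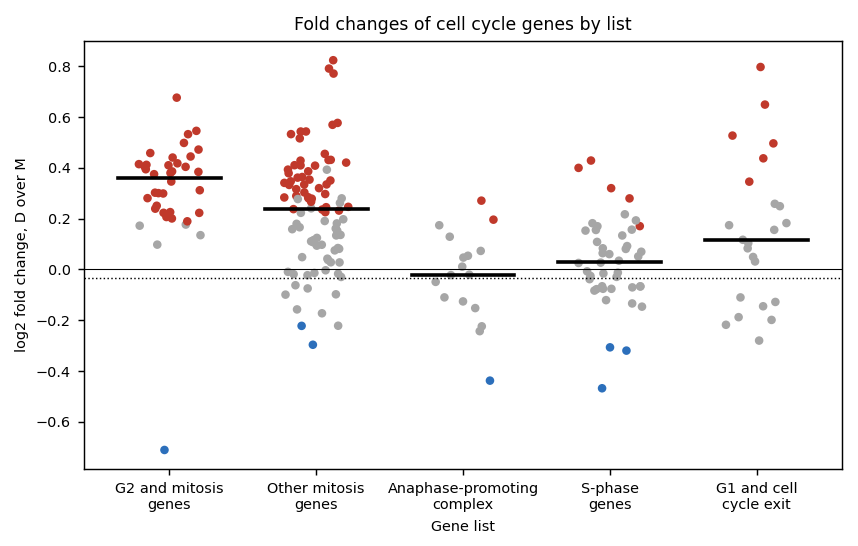
Each point is the log2 fold change of D over M of one gene, by list, red where it was higher, blue where lower and grey where it did not pass, with black bars at list medians and the dotted line at the median of all tested genes. The medians were 0.36 for the 38 G2 and mitosis genes, 0.24 for the other mitosis genes, -0.02 for the anaphase-promoting complex, 0.03 for the S-phase genes and 0.12 for G1 and exit.

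Summed over genes, the members took 2250, 2158, 2151 and 2078 TPM in D and 1719, 1783, 1992 and 1964 TPM in M. Every D library was above every M library, with M replicate 3 nearest. The S-phase genes took 2759, 2404, 2290 and 2254 TPM in D and 2555, 2484, 2447 and 2517 TPM in M, and these groups overlapped, with D replicate 1 the highest and the other D libraries below every M library. The ratio of the sums was 0.815, 0.898, 0.939 and 0.922 in D and 0.673, 0.718, 0.814 and 0.780 in M, with D replicate 1 just above M replicate 3.

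**Figure D4:**
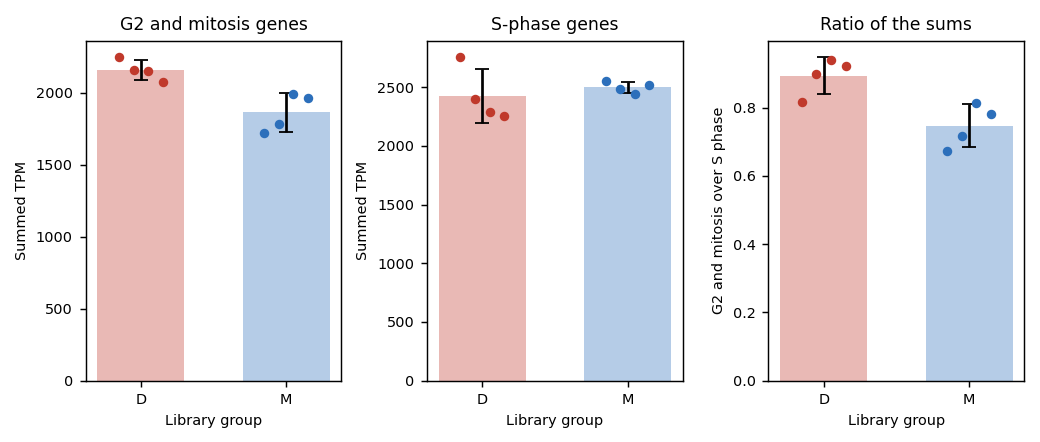
Bars give the mean and error bars the SD of summed TPM (n = 4 per group) for the G2 and mitosis genes, the S-phase genes and their ratio, with points for libraries. The members summed to 2159 ± 70.3 TPM in D and 1865 ± 134 in M, while the S-phase genes summed to 2427 ± 230 and 2501 ± 46.3.

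Markers of other cell types moved with the groups, in a comparison where 17.4% of all tested genes were higher and 17.3% lower. B-lineage precursor markers were lower in D for 10 of 14 tested genes, summing to 1086 to 1279 TPM in D and 2271 to 2673 TPM in M, and Rag1, of V(D)J recombination, fell by 3.58 on the log2 scale. Late neutrophil markers were higher for 10 of 11, with a median of 0.85, and basophil and mast cell markers for 6 of 6 (1034 to 1643 against 468 to 658 TPM). Macrophage markers were higher for 10 of 14 and T and NK cell markers for 4 of 6 (91.7 to 109 against 64.3 to 73.3 TPM). Of 6 stem and early progenitor markers 1 was higher and 2 were lower (228 to 366 against 398 to 420 TPM), with Myb lower by a log2 fold change of -0.85 and Gata2 higher by 0.61. The other lower gene, Flt3, lost its call without any one library other than D 1 (adjusted p 0.0644 to 0.107).

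Early neutrophil and promyelocyte markers, genes of a dividing stage, showed 0 of 7 called by edgeR's quasi-likelihood test. Higher in D were 1 at an unadjusted p under 0.05 by that test, 1 by DESeq2 and 2 with the replicate number as a block. In each of these settings 0 were lower. The list summed to 2746 to 3468 TPM in D and 2652 to 3378 in M. Erythroid markers were at 4157 to 23016 TPM in D and 15279 to 27690 TPM in M, with 1 of 11 lower. That was Tfrc, the transferrin receptor, whose call ended on leaving out any one of D 2, D 3, D 4, M 1 and M 2 (adjusted p 0.0633 to 0.0939) and on the most abundant transcript (0.0557). Of 5 plasma cell markers 1 was higher and 2 were lower (194 to 260 against 176 to 195 TPM). The part of these marker differences in the differences of the G2 and mitosis genes was not tested.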

How the data were processed

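RNA-seq values of 8 libraries, 4 per group, were used as deposited. Per the labels' protocols, polyadenylated RNA was captured with oligo(dT) and sequenced as DNA nanoballs, SOAPnuke 1.5.6 removed poor reads, HISTA2 2.1.0 (spelled so there) aligned the rest to mm10, and groups were compared with limma 3.66.0 at an unadjusted p of 0.05. The quantifier, the annotation release and the strand setting were not given in the sources used here. Per the file headers and values, the authors deposited estimated counts for 60072 transcripts, not normalized. TPM values, as deposited, adjust for transcript length and sum to one total in each library, and FPKM values, as deposited, adjust for transcript length and library size. A deposited signal of normalized counts equalled the counts divided by one factor per library (0.953 to 1.063) and served only for that check. Means per group fill 8 further deposited columns, which were left aside.

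Counts of a gene's transcripts were summed, then rounded to whole numbers. Genes low in counts were removed with edgeR's filterByExpr (minimum count 10, minimum total 15), which left 12839. Groups were tested with the quasi-likelihood method of edgeR 4.0.16 in R 4.3.3 (TMM factors, robust fit, Benjamini-Hochberg adjustment over all tested genes, threshold 0.05), tested on simulated data. TMM factors were 0.913 to 1.01 in D and 1.03 to 1.05 in M. CPM values use these factors. Differences between replicates of a group exceeded sampling noise, at a chi-square per gene of 6.96 to 80.8, so none was counted as a copy.

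Both groups carry replicate numbers in the labels. Deviations from the group means correlated by 0.115, 0.131, 0.119 and 0.182 between libraries of the same number, and by -0.178 to 0.0735 between others. No label states what the numbers share, so a pairing of the libraries is possible but not known. The main fit did not use it, and a second fit took the number as a block. Other alternatives were DESeq2 (1.42.0) size factors and test, library totals alone, other filters, voom (limma 3.58.1), the FPKM values on the log2(value + pseudocount) scale with pseudocounts of 1 and 0.1, the most abundant transcript, and leaving out each library. Leaving out D replicates 1 and 3 together was chosen after seeing the data.

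The members and lists were chosen with earlier results of these data known. Genes were named by rule: all 38 members, with values in every library for up to 2 per role (the lowest p and the largest change, or the next lowest p where these were one gene), up to 4 called genes with the lowest p per other list, of which some are given only as counts, and 11 genes named whatever their values. Mertk, Rbbp4, Lin52 and some called genes of the other lists were named outside this rule. Promoter windows are from RefSeq tables of GRCm38.p6.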

Additional observations from a re-analysis of the deposited data

Results flagged for a closer look

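One value stood apart from its group. Kif20a was at 49.72 CPM in M replicate 2, against 59.81 to 61.35 CPM in the other 3 M libraries, a gap of 0.867 of the group's range that is above Dixon's 95% critical value for 4 samples. Of 76 groups of 4 libraries examined (38 genes in 2 groups), 1 passed this value, and chance alone gives about 1 in 20. The D libraries of Kif20a lay above all 4 M libraries with and without that value.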

How the results depend on the processing

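The 33 higher members became 20 with library totals alone, 20 on FPKM values with a pseudocount of 1 or of 0.1, 18 on unfiltered FPKM values and 15 on the most abundant transcript. Leaving out each library in turn gave 23 to 33, where 13.2% to 22.1% of all tested genes were higher. Cdc25b was lower in all 20 alternatives. Over all genes, the 2233 higher became 1360, 1354 and 1336 on FPKM values (pseudocount 1, 0.1 and unfiltered) and 1071 on the most abundant transcript, and the 2223 lower became 3346 with library totals and 965 on the most abundant transcript. With the replicate number as a block, 33 members were higher and 1 was lower, and 2412 genes (18.8%) were higher, so the block changed no member's call. Of 760 member values, 631 kept direction and side of the threshold, 121 lost the call with the direction kept, 3 gained it and 5 changed sign. Racgap1 on the most abundant transcript, counted among the sign changes, also lost its call. The causes were not tested.

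The sign changed for Cks2 (-0.0080 with library totals, -0.0066 on all 3 FPKM settings) and Racgap1 (-0.1726 on the most abundant transcript). Among other genes, none of which had passed, values with library totals, then FPKM with pseudocount 1 (unfiltered too) and 0.1, were -0.0774, -0.0574 and -0.0604 for Mybl2, -0.0558, -0.0592 and -0.0614 for Fzr1, -0.0104, -0.0157 and -0.0158 for Pcna, -0.0681, -0.0851 and -0.0865 for Cdkn1a, and -0.0162, -0.0324 and -0.0349 for Ccnd2. On the most abundant transcript Mybl2 was at -0.1141, Ccnd2 at -0.1891 and Lin9 at 0.7721. Lin9 was at 0.0015 with DESeq2 size factors and 0.0014 in the DESeq2 test, and Mybl2 at -0.0109 without D replicates 1 and 3. Leaving out single libraries gave -0.0722 to 0.0678 for Lin9 (above 0, from 0.0119, on leaving out D 2, D 4 or M 1), -0.0694 to 0.1961 for Cdkn1a (below 0 on leaving out D 2, D 4, M 1 or M 2) and -0.1383 to 0.0086 for Mcm2 (above 0 on leaving out D 3).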
